A study of Mus musculus with 18 samples.

Results

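The comparison described here set medullary thymic epithelial cells with a high surface level of MHC class II (mTEChi) against cortical thymic epithelial cells (cTEC), both from wildtype mice. Libraries were taken by their labels, 3 of mTEChi and 3 of cTEC, which is 6 of the 18 RNA-seq libraries of the study, and the 27179 genes of the deposited tables were compared. All 6 came from C57BL/6 mice with the genotype given as wildtype. Pools of mice numbered 1 to 3 each gave 1 library of each cell type, so a pool number joins an mTEChi library to a cTEC library of the same mice. Another wildtype population from these pools, medullary cells with a low level of MHC class II (mTEClo), is given here as levels only, since it shares mice with both groups. The remaining 9 libraries were of the same 3 populations from Kat7 knockout (KO) mice, in pools 4 to 6, and the labels do not say in which cells Kat7 was deleted. The age and number of mice in a pool, and the antibodies that defined cTEC and mTEC in the sort, are not given in the labels.

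Thymic epithelial cells are the stroma in which T cells are selected. In the cortex they cut self proteins with their own set of proteases and select thymocytes whose receptors recognise self MHC. In the medulla, mature cells with much MHC class II transcribe a large number of genes that are otherwise restricted to single organs, under factors such as AIRE and FEZF2, and present the products to thymocytes that are then deleted or become regulatory T cells.

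Of the 27179 genes, 19364 had enough reads to be tested. Levels are given as CPM, a gene's count scaled to the TMM-adjusted total of its library, and as the mean ± SD of 3 libraries. A log2 fold change is the fitted mTEChi over cTEC change, so a positive value is a higher level in mTEChi, and a gene was called when its Benjamini-Hochberg adjusted p from edgeR's quasi-likelihood test, over all tested genes, was below 0.05. Most tested genes differed between the 2 cell types. Genes called in either direction numbered 12478 (64.4% of those tested), of which 6960 (35.9%) were higher in mTEChi and 5518 (28.5%) lower. A change of at least 2-fold was called for 5127 genes higher in mTEChi (26.5%) and for 2842 lower (14.7%). In 7312 genes (37.8%) each mTEChi library lay above each cTEC library, and in 5572 (28.8%) each lay below. The median log2 fold change of all tested genes was 0.13, and the shares above are the background against which the gene groups below are read. These shares varied with level. At a mean under 1 CPM over the 18 libraries, 58.2% of tested genes were at least 2-fold higher in mTEChi and 3% lower. At 1 to 10 CPM these were 42.4% and 12.5%, at 10 to 100 CPM 11.6% and 18.6%, and from 100 CPM 10.9% and 17.2%. The gene groups below were not matched for level.

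The libraries of mTEChi held 3554089 to 8445355 counts and those of cTEC 13300969 to 18338441, so a count of 0 allows up to 0.0584 CPM over the cTEC libraries and up to 0.155 CPM over those of mTEChi (3 reads, counting error only). In spite of the lower depth, 2673 genes had reads in mTEChi and none in cTEC, and 496 the reverse. After every library was thinned to 3554089 counts, 17702.8 ± 139 genes in mTEChi and 15213.6 ± 102 in cTEC had at least 5 reads (n = 3 each), a difference of 2489 with no overlap (two-sided exact permutation p = 0.1, the smallest that 3 against 3 libraries allow). The mean count in mTEClo was 15338.9.

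**Figure D1:**
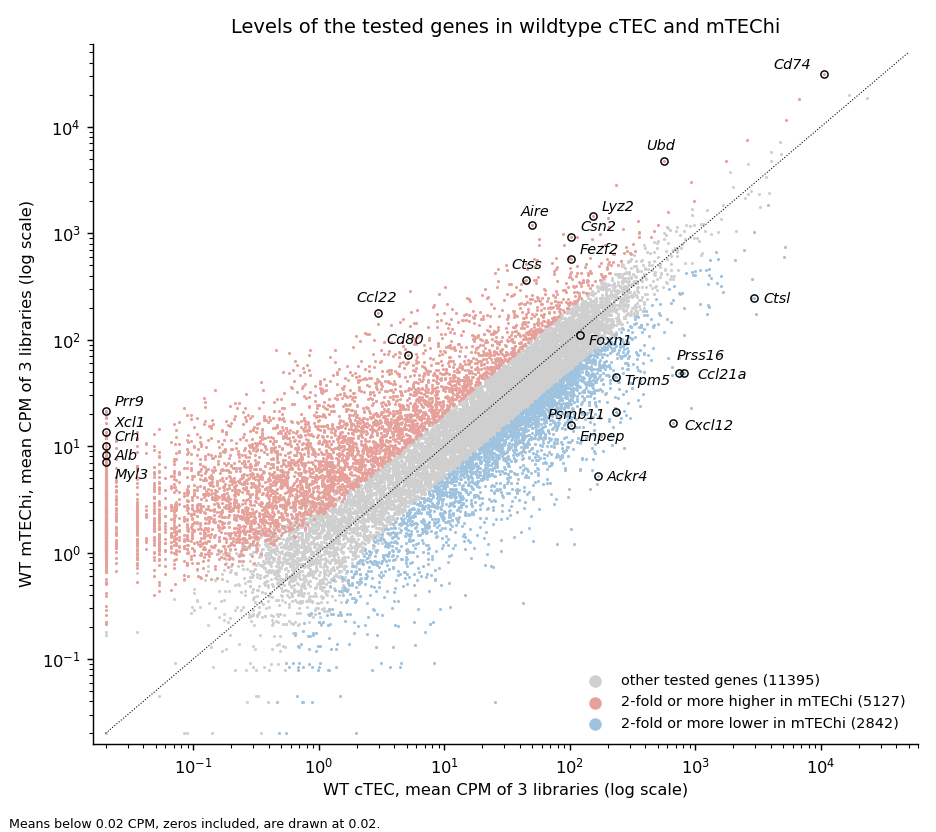
Mean level of each tested gene in wildtype cTEC (horizontal axis) and mTEChi (vertical axis), in CPM on log scales, with called changes of at least 2-fold in colour and the dotted line at equal levels. The 5127 higher genes lie mostly at low cTEC levels, where their median is 0.910 CPM against 7.23 CPM in mTEChi, and the 2842 lower genes have medians of 37.2 CPM in cTEC and 10.7 CPM in mTEChi.

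The cell type labels were checked against markers first. Epcam, the epithelial adhesion molecule, was at 1158 to 1214 CPM in mTEChi and 790.1 to 872 CPM in cTEC. The defining cortical markers were present in every cTEC library and the mature medullary markers in every mTEChi library, as described below. The cTEC libraries also carried transcripts known from mTEClo and from other thymic epithelium. Ccl21a, a chemokine of immature medullary cells whose reads can be shared with near-identical copies, was at 662, 942 and 638 CPM in cTEC pools 1, 2 and 3, at 41.6 to 56.0 CPM in mTEChi and at 1528 to 1576 CPM in mTEClo. Krt5, a keratin of medullary and basal epithelium, was at 1462, 1068 and 1282 CPM in cTEC against 1100.0 to 1232 CPM in mTEClo and 181 to 256 CPM in mTEChi. Bpifa1, a secreted protein of airway epithelium, reached 1079 to 1486 CPM in cTEC and 137 to 315 CPM in mTEClo. Pool 3 had the lowest cortical marker levels of the cTEC libraries. Without that library 5511 genes were at least 2-fold higher in mTEChi and 2924 lower. In bulk RNA a smaller share of a cell type and less RNA per cell cannot be told apart, and how far medullary cells in the cTEC libraries bear on a given gene was not tested.

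Cortical genes were lower in mTEChi. Of 24 tested genes known for function in cTEC, 17 were called lower and 0 higher (median log2 fold change -1.37). Psmb11 (chromosome 14, 54625310 to 54629556 on GRCm38.p6), which encodes the cortex-specific catalytic subunit β5t of the thymoproteasome, was measured at 278, 277 and 142 CPM in cTEC pools 1, 2 and 3 and at 22.2, 20.4 and 19.8 CPM in mTEChi. Pool 3 of cTEC was the lowest of its group and still far above each mTEChi library, and mTEClo at 14.9 to 20.3 CPM lay at the mTEChi level (log2 fold change -3.49, SE 0.30, adjusted p = 6.52e-09). Prss16, the thymus-specific serine protease that helps make class II peptides in the cortex, was at 1028, 857 and 554 CPM in cTEC and 42.1, 52.5 and 51.8 CPM in mTEChi. These groups did not overlap either (-4.05, SE 0.25, adjusted p = 4.06e-11). Enpep, the aminopeptidase that carries the cortical surface antigen Ly51, was at 110.2, 117 and 77.2 CPM in cTEC and 12.2, 18.4 and 16.5 CPM in mTEChi, with only 4.40 to 4.70 CPM in mTEClo (-2.66, adjusted p = 3e-11). The labels do not say whether Ly51 was used to sort cTEC, so the Enpep level could be close to what the sort selected. Ly75, the endocytic receptor DEC-205 of cortical and dendritic cells, differed less, with 132 ± 37.9 CPM in cTEC and 39.5 ± 5.46 CPM in mTEChi (-1.74, adjusted p = 4.69e-07).

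Signals to thymocytes were among the genes lower in mTEChi. Cxcl12 (chromosome 6, 117168535 to 117181368), the chemokine that binds CXCR4 on immature thymocytes, was at 661, 779 and 559.7 CPM in cTEC and 17.2, 17.1 and 15.05 CPM in mTEChi, with 116 to 136 CPM in mTEClo. The mTEClo libraries lay between the other cell types, which did not come near each other (-5.35, SE 0.15, adjusted p = 4.36e-15). Ackr4, a scavenging receptor for CCL19, CCL21 and CCL25, was at 166 ± 17.1 CPM in cTEC and 5.26 ± 1.52 CPM in mTEChi (-4.93, adjusted p = 6.19e-14). Il7, the survival cytokine of early thymocytes, was 342 ± 61.7 against 172 ± 17.6 CPM (-0.99, adjusted p = 8.02e-07). Foxn1, Dll4 and Ccl25 were not called in the main fit. Foxn1, the master transcription factor of thymic epithelium, was at 94.1 to 126 CPM in mTEChi and 101 to 131 CPM in cTEC (log2 fold change -0.11, adjusted p = 0.583, not called). Dll4, the Notch ligand that commits progenitors to the T lineage, was at 17.7 to 22.7 and 16.5 to 27.8 CPM (-0.03, adjusted p = 0.943, not called). The chemokine Ccl25 was at 1034 to 1104 and 559 to 949.5 CPM (0.37, adjusted p = 0.095), so its libraries did not overlap. It was called higher in mTEChi with the mouse pool as a block (0.39, adjusted p = 0.04) and with DESeq2 (0.45, adjusted p = 0.0403). The means of Foxn1, Dll4 and Ccl25 in mTEClo were 73.0, 5.03 and 108 CPM.

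The mature medullary programme was the counterpart. Aire (chromosome 10, 78030022 to 78043610), the regulator that opens organ-restricted genes in the medulla, was at 1096, 1225 and 1229 CPM in mTEChi and 45.4, 28.3 and 75.8 CPM in cTEC. The highest cTEC library, pool 3, was far below the lowest mTEChi library, and mTEClo held 27.3, 26.2 and 59.3 CPM (log2 fold change 4.57, SE 0.36, adjusted p = 1.72e-09). Fezf2, a zinc finger factor that drives another set of organ genes, was at 596, 546 and 566 CPM in mTEChi and 119, 84.1 and 102 CPM in cTEC (2.49, SE 0.15, adjusted p = 3.47e-11). Groups for both factors did not overlap. Ubd, which encodes the ubiquitin-like protein FAT10, had 4766 ± 113 CPM in mTEChi and 565 ± 84.99 CPM in cTEC (3.08, adjusted p = 5.17e-10). Hdc, the histidine decarboxylase that makes histamine, was at 884 ± 90.6 and 57.1 ± 28.7 CPM (3.95, adjusted p = 5.35e-10), and Nos2, the inducible nitric oxide synthase, at 218 ± 29.9 and 23.7 ± 7.72 CPM (3.20, adjusted p = 3.56e-10). Of 27 tested medullary identity genes 17 were called higher and 7 lower, beside 35.9% and 28.5% of all tested genes. The lower ones were Ccl21a, Lifr, Krt5, Krt14, Trp63, Itgb4 and Ltbr, genes of basal epithelium or of immature medullary cells, and their means in mTEClo were 1546, 721, 1175, 1717, 410.5, 225.3 and 86.5 CPM.

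**Figure D2:**
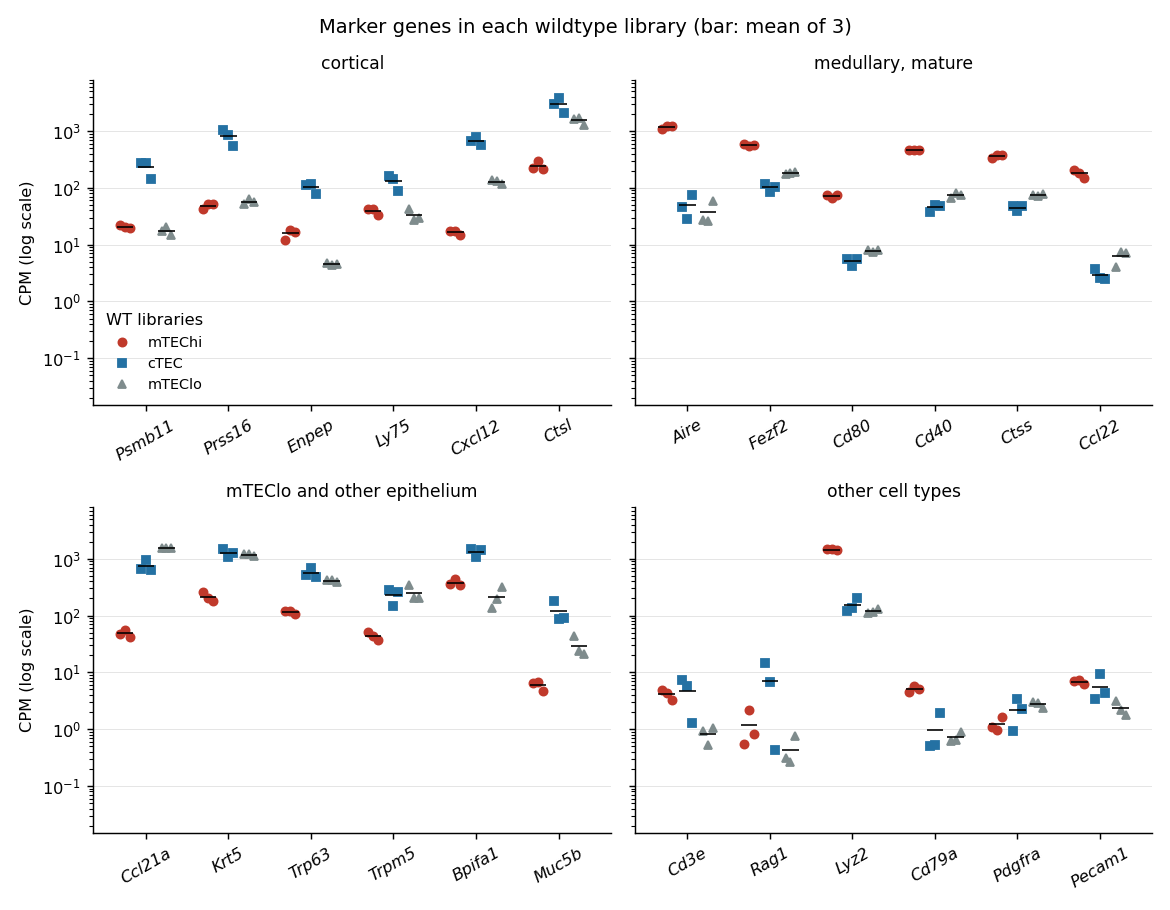
Level of marker genes in each wildtype library in CPM on a log scale, with 3 points per cell type in the order of pools 1 to 3 and a bar at their mean. Aire, Fezf2, Cd80, Cd40, Ctss and Ccl22 are higher in each mTEChi library than in each cTEC library, and for Ccl21a, Krt5, Trp63 and Trpm5 the cTEC libraries lie nearer to mTEClo than to mTEChi.

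Among 32 tested genes for AIRE, FEZF2 and their partners 8 were called higher and 13 lower, beside 35.9% and 28.5% of all tested genes. Sirt1, a deacetylase that AIRE is reported to need, was the partner with the largest rise, at 275, 313 and 355 CPM in mTEChi and 33.5, 35.0 and 43.0 CPM in cTEC. It did not overlap between the groups (3.08, SE 0.14, adjusted p = 9.27e-13). Irf8 and Irf4, transcription factors shared with immune cells, were at 440.1 against 146 CPM (1.60, adjusted p = 7.82e-09) and 50.3 against 7.39 CPM (2.74, adjusted p = 9.07e-07). Top2a, a topoisomerase of dividing cells, was 107 against 18.5 CPM (2.53, adjusted p = 6.14e-09), whereas the related Top2b was lower (-0.74, adjusted p = 3.29e-05). Ccnt2, a cyclin that takes part in the release of paused RNA polymerase, was lower in mTEChi as well (-0.56, adjusted p = 0.000117). Kat7, the gene deleted in the KO mice and a histone acetyltransferase, was at 47.9 to 59.0 CPM in mTEChi and 57.7 to 83.4 CPM in cTEC (-0.42, adjusted p = 0.1, not called), and with the mouse pool as a block it was called lower (-0.40, adjusted p = 0.0191).

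By rank of log2 fold change, among called genes that did not overlap and had at least 5 CPM in the higher group, the 12 genes highest in mTEChi all had 0 reads in the 3 cTEC libraries. With 0 reads the fitted size depends on the prior count, a small count that the fit adds. The ranking therefore favours such genes, and their order follows their mTEChi level. A gene could also pass the filter through mTEChi alone, so the ranking is a description. Prr9 (chromosome 3, 92122204 to 92123947), a proline-rich protein gene in the epidermal differentiation region, was at 17.2, 21.3 and 25.1 CPM in mTEChi, at least 363-fold higher than the cTEC floor. Aqp8, a water channel of gut and glands, was at 9.14, 17.5 and 11.5 CPM and Rlbp1, a retinal-binding protein of the visual cycle, at 10.2, 13.1 and 14.1 CPM (at least 218-fold and 214-fold higher). The others were H2-M10.1, Tmem92, Bcat1, Hand1 of the developing heart, Amtn of tooth enamel, the hypothalamic hormone gene Crh, Slc6a15, Gpr83 and the gastric lipase gene Lipf, at 16.5 CPM for the first and 8.63 CPM for the last. The means of these 12 genes in mTEClo were at most 1.02 CPM, the value of Aqp8.

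At the other end were Medag, Fam71a, Scn1a, Scarf2, Fmod, Kcnk2, Cxcl12, Gas1, Prelp, Arhgap20, Mir100 and Mchr1. Scn1a, a neuronal sodium channel gene, was at 101, 108 and 114 CPM in cTEC and 0.831, 1.54 and 1.22 CPM in mTEChi (-6.38, SE 0.31, adjusted p = 1.92e-12). Fmod and Prelp, small proteoglycans of the extracellular matrix that lie close to each other on chromosome 1, were at 104, 123 and 79.1 CPM and 142, 203 and 147 CPM in cTEC and at 0.831, 1.54 and 2.58 CPM and 4.71, 4.28 and 4.203 CPM in mTEChi. No library of one cell type reached the range of the other. Their log2 fold changes were -5.83 and -5.24, and mTEClo was also low, with 16.3 and 11.4 CPM. Gas1, a membrane protein that binds hedgehog ligands, differed from these in that mTEClo kept much of the cTEC level, with 928 CPM in cTEC, 645 CPM in mTEClo and 22.7 CPM in mTEChi (-5.34, SE 0.18, adjusted p = 2.31e-14).

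Promoter sequences are shown for 2 genes that mark each side, Psmb11 and Cxcl12 for the cortex and Aire and Prr9 for mature medullary cells. Each is the window of 250 bases before and 50 bases from the annotated start, from RefSeq on GRCm38.p6, 5′ to 3′ on the strand of the gene. Capitals mark GACGC, the core that FOXN1 is known to bind, or its reverse complement GCGTC, and TATAAA, the classical TATA box. Psmb11 lies at chr14:54625060-54625359, plus strand, Cxcl12 at chr6:117168285-117168584, plus strand, Aire at chr10:78043561-78043860, minus strand and Prr9 at chr3:92123898-92124197, minus strand.
Psmb11: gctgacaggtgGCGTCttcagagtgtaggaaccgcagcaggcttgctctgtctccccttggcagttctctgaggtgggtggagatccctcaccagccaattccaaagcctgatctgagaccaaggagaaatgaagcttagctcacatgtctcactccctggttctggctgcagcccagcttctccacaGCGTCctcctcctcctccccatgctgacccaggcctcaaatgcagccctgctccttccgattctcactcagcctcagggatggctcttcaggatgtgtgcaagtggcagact
Cxcl12: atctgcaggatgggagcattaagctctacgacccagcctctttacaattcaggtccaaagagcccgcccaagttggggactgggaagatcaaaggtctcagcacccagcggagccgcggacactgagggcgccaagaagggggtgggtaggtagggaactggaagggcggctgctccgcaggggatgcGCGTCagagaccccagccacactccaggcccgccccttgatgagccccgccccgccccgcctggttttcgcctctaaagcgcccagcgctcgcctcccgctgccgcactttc
Aire: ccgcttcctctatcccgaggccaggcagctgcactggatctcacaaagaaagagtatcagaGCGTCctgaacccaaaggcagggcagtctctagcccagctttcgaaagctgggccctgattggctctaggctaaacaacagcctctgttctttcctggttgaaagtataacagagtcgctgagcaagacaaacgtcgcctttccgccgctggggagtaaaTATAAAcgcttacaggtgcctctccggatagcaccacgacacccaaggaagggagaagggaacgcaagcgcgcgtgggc
Prr9: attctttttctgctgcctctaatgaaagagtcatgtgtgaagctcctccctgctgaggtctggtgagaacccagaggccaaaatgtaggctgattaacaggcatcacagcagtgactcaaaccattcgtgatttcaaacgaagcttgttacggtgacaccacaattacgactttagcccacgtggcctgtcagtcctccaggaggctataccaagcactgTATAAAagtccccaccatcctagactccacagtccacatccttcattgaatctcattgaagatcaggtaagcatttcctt
The window of Psmb11 holds GCGTC with its first base at -239 and again at -62, counted back from the base before the start as -1, and that of Cxcl12 holds it at -62. The window of Aire holds GCGTC at -189 and TATAAA at -29, and that of Prr9 holds TATAAA at -30. Of 32851 windows of this length, 27.2% hold GACGC and 13.6% hold TATAAA on either strand. A match describes the letters of the window and nothing more.

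Of 25 tested proteasome and class I genes 15 were called higher in mTEChi and 6 lower, beside 35.9% and 28.5% of all genes. The catalytic β5 position of the proteasome can be filled by the products of Psmb5 (constitutive), Psmb8 (immunoproteasome) or Psmb11 (thymoproteasome). Per kb of gene model, Psmb11 made up 14.98% ± 3.61 of the counts of these 3 genes in cTEC and 0.766% ± 0.0475 in mTEChi (SD, n = 3), a difference of -14.2 percentage points (two-sided exact permutation p = 0.1, the smallest possible). The 3 cTEC libraries lay between 10.9% and 17.6% and did not overlap with mTEChi, and mTEClo was at 0.909%. In the KO mice, cTEC were at 24.7%. At the β1 position the immunoproteasome gene Psmb9 took 43.5% in mTEChi and 61.7% in cTEC, while at β2 Psmb10 took 71.9% and 71.0%. Psme2, a subunit of the proteasome activator PA28, was at 199.5 ± 11.8 CPM in mTEChi and 66.5 ± 9.84 CPM in cTEC (1.58, adjusted p = 2.34e-08), and B2m, the light chain of class I molecules, at 11534 ± 362 and 5325 ± 864 CPM (1.12, adjusted p = 1.23e-05). Tap1 and Tap2, which carry peptides into the endoplasmic reticulum, were lower in mTEChi (-0.70, adjusted p = 0.000164 and -1.10, adjusted p = 1.37e-06).

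**Figure D3:**
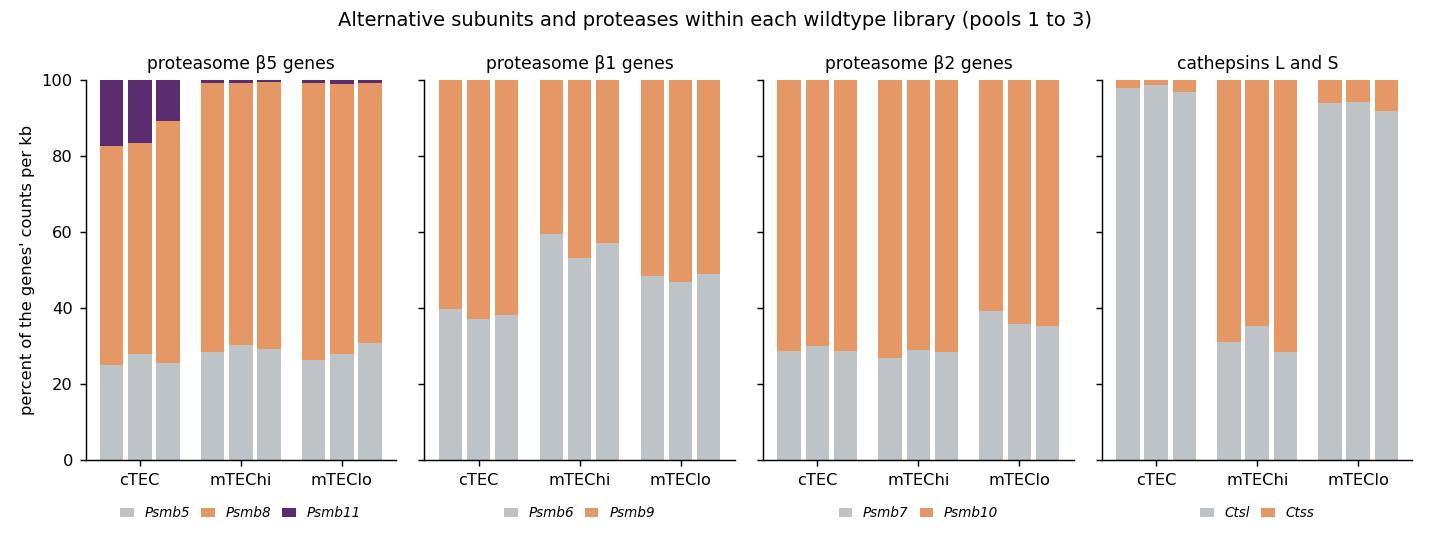
Percent of the counts per kb of alternative genes within each wildtype library, as stacked bars for pools 1 to 3 of each cell type. Psmb11 reaches 10.9% to 17.6% of the β5 genes in cTEC and stays under 1% in mTEChi, and Ctss takes 64.8% to 71.6% of the cathepsin pair in mTEChi against 1.52% to 3.24% in cTEC.

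Of 30 tested genes of class II presentation and lysosomal proteolysis 18 were called higher and 7 lower, beside 35.9% and 28.5% of all genes. Cd74, the invariant chain that guards the class II groove, was at 31645, 31608 and 30494 CPM in mTEChi and 10779, 12052 and 9004 CPM in cTEC (1.56, SE 0.13, adjusted p = 4.91e-09). H2-Ab1 and H2-Aa, the chains of the class II molecule I-A, were at 18261 ± 443 against 6655 ± 834 CPM (1.46, adjusted p = 6.29e-09) and 7557 ± 328 against 2589 ± 180.1 CPM (1.55, adjusted p = 1.53e-09). Surface MHC class II was used to sort mTEChi, so a higher level of these genes is close to what the sort selected. H2-Oa and H2-Ob, the 2 chains of an inhibitor of peptide exchange, differed more, with 559 against 55.0 CPM (3.35, adjusted p = 2.54e-11) and 156 against 20.4 CPM (2.93, adjusted p = 2.43e-11). Ctsl, the cathepsin that cuts the invariant chain in the cortex, was at 3046, 3739.6 and 2074 CPM in cTEC and 220.4, 302 and 218 CPM in mTEChi. Ctss, which does so in antigen-presenting cells, was at 335, 382 and 378 CPM in mTEChi and 47.5, 39.6 and 47.7 CPM in cTEC. Neither gene overlapped between the groups (Ctsl -3.58, SE 0.19, adjusted p = 5.9e-12, Ctss 3.02, SE 0.16, adjusted p = 7.11e-12). Per kb, Ctss took 68.4% of the pair in mTEChi, 2.32% in cTEC and 6.70% in mTEClo. Autophagy genes, which feed cytoplasmic proteins into class II loading, were called lower in 15 of 30 and higher in 6, with Ulk1 at -1.61, adjusted p = 4.67e-08 and Sqstm1 at -1.11, adjusted p = 5.03e-05.

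Costimulatory ligands were higher in mTEChi for 17 of 28 tested genes and lower for 7, beside 35.9% and 28.5% of all genes. Cd80 and Cd86, which bind CD28, were at 74.2, 67.0 and 73.5 CPM and 54.5, 44.0 and 44.7 CPM in mTEChi and at 5.68, 4.14 and 5.64 CPM and 1.53, 1.80 and 0.852 CPM in cTEC. All mTEChi libraries lay above all cTEC libraries for both (Cd80 3.80, SE 0.17, adjusted p = 8.13e-13, Cd86 5.09, SE 0.31, adjusted p = 3.89e-11). Cd40, the receptor through which T cells signal to medullary cells, was at 464 ± 2.13 and 45.2 ± 6.25 CPM (3.36, adjusted p = 1.27e-12). Cd70, the ligand of CD27, was at 98.4 ± 5.13 and 2.73 ± 0.638 CPM (5.15, adjusted p = 1.49e-11), and Icosl, the ligand of ICOS, at 455 ± 45.9 and 31.5 ± 1.91 CPM (3.85, adjusted p = 4.69e-14). Among lower genes were Lgals9 (-1.64, adjusted p = 1.63e-07), a galectin that binds the checkpoint receptor TIM-3, and Cd200 (-1.40, adjusted p = 3.47e-06), the ligand of an inhibitory receptor of myeloid cells.

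Of 33 tested chemokines and scavenging receptors 18 were called higher and 11 lower, beside 35.9% and 28.5% of all tested genes. Ccl22, a ligand of CCR4 on thymocytes that enter the medulla, was at 207, 184 and 146 CPM in mTEChi and 3.78, 2.55 and 2.50 CPM in cTEC. The gap between the groups was wide (5.94, SE 0.28, adjusted p = 1.45e-12). Ccl17, the other CCR4 ligand, was at 26.1 and 1.10 CPM (4.54, adjusted p = 7.02e-08), and Ccl5 at 177 and 12.5 CPM (3.82, adjusted p = 7.81e-10). Xcl1, which draws XCR1-bearing dendritic cells into the medulla, was at 14.1, 13.3 and 13.3 CPM in mTEChi and at 0, 0.0531 and 0 CPM in cTEC, where 1 read was counted in all. Lower genes included Cxcl12, Ackr4 and Ccl21a (above), Ccl11 (-2.67, adjusted p = 2.19e-08) and Cx3cl1 (-2.32, adjusted p = 2.66e-10). Among 43 cytokines and growth factors 20 were called higher and 13 lower, beside 35.9% and 28.5% of all tested genes. Il12a, a subunit of IL-12 and IL-35, was at 183 ± 10.7 and 5.45 ± 2.83 CPM (5.07, adjusted p = 3.72e-11), Csf2 at 23.4 ± 3.78 and 0.829 ± 1.09 CPM (4.75, adjusted p = 2.32e-06) and Fgf21, a hormone of liver, at 778 ± 209 and 89.8 ± 22.3 CPM (3.12, adjusted p = 2.78e-10). Fst, an inhibitor of activins, had the most negative change of the 43, at 9.59 ± 0.392 and 271 ± 39.7 CPM (-4.81, adjusted p = 4.36e-15).

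Notch pathway genes were called lower in 15 of 27 and higher in 6. The ligands Jag2 and Dll1 were at 7.60 against 154 CPM (-4.27, SE 0.19, adjusted p = 5.03e-13) and 7.83 against 86.1 CPM (-3.45, adjusted p = 7.46e-12), and the target gene Hey1 at 10.02 against 70.8 CPM (-2.82, adjusted p = 1.08e-10). Transcription factors of the pharyngeal pouch and of thymic epithelium were called lower in 22 of 34 and higher in 4. Pax1, needed for pouch and thymus development, was at 322, 300.3 and 319 CPM in cTEC and 32.9, 38.4 and 34.7 CPM in mTEChi, with no overlap (-3.14, SE 0.13, adjusted p = 1.51e-13). Trp63, which maintains epithelial progenitors, was at 521, 697 and 486 CPM in cTEC and 122, 122 and 109 CPM in mTEChi (-2.27, SE 0.12, adjusted p = 6.63e-12). Hoxa3 (-3.54, adjusted p = 2.78e-08), Isl1 (-2.35, adjusted p = 1.74e-11) and Meis1 (-2.28, adjusted p = 5.56e-11) were also lower, and the 4 higher ones were Fezf2, Dlx5, Tfap2c and Grhl3. Levels in mTEClo lay between those of the 2 cell types for these 5 factors, with Trp63 at 410.5, Pax1 at 100.2, Hoxa3 at 9.27, Isl1 at 197 and Meis1 at 104 CPM. Keratin and junction genes moved both ways, 20 of 49 higher and 19 lower, beside 35.9% and 28.5% of all tested genes. Krt5 and Cdh3 were lower (-2.58, adjusted p = 8.74e-11 and -3.07, adjusted p = 4.07e-11), and Krt76 and Ocln higher (3.61, adjusted p = 1.41e-09 and 1.80, adjusted p = 7.43e-08).

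NF-kB genes were called higher in 16 of 32 and lower in 10, beside 35.9% and 28.5% of all tested genes. Tnfrsf11a, which encodes the receptor RANK that matures medullary cells, was at 384, 451 and 382 CPM in mTEChi and 138, 131 and 152 CPM in cTEC (1.53, SE 0.11, adjusted p = 6.49e-10). Relb and Nfkb2, the pair of factors of the noncanonical branch, were higher by 1.05 and 0.95 on the log2 scale (adjusted p = 1.75e-06 and 3.3e-07). Nfkb1 and Rela, the pair of the canonical branch, were lower (-1.13, adjusted p = 4.58e-08 and -0.64, adjusted p = 0.000211), as was Ltbr, the lymphotoxin receptor (-1.24, adjusted p = 1.45e-08). Map3k14, the kinase that starts the noncanonical branch, was not called (-0.18, adjusted p = 0.288).

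Genes known for other organs were mostly higher in mTEChi. The lists of organ antigens held 304 genes in all, of which 263 had enough reads to be tested. A gene silent in all other groups passed that filter only because mTEChi expressed it and so had to differ, and the counts are therefore descriptions. Called higher were 209, called lower 11 and not called 43, beside 35.9% and 28.5% of all tested genes. Those shares are over genes of all levels, and genes at low levels were more often higher in mTEChi (above). Transcripts of the whole 304 made up 1.38% ± 0.0902 of counts in mTEChi and 0.917% ± 0.177 in cTEC (SD, n = 3), with no overlap (two-sided exact permutation p = 0.1, the smallest possible), a difference of 0.463 percentage points. A large part of these counts came from few genes. Reg3g, an antibacterial lectin of the intestine, was at 2365, 1429 and 2208 CPM in cTEC and 3390.4, 2307 and 2438 CPM in mTEChi and was not called (0.44, adjusted p = 0.148), nor with the mouse pool as a block over all 18 libraries (0.45, adjusted p = 0.093), but it was over the 6 libraries alone with that block (0.42, adjusted p = 0.0181). Fcgbp, a mucus protein, was not called either (-0.25, adjusted p = 0.159), though it was with the mouse pool as a block (-0.25, adjusted p = 0.0384). Gp2 of pancreatic zymogen granules and of microfold cells was lower in mTEChi, at 558 ± 62.8 against 1304 ± 385 CPM (-1.23, adjusted p = 0.000527).

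By organ, the tested liver antigens were called higher in 27 of 30 and lower in 0. Alb, which encodes serum albumin, was at 7.199, 9.504 and 8.13 CPM in mTEChi with 0 reads in cTEC, at least 142-fold higher. Fgb, a chain of fibrinogen, was at 16.6, 11.6 and 13.0 CPM in mTEChi and 0.509, 0 and 0 CPM in cTEC, and Apoa1 of plasma lipoproteins at 198 and 39.9 CPM (2.32, adjusted p = 3.16e-06). Pancreatic antigens were higher in 21 of 27 and lower in 1, Gp2. Ins2, which encodes insulin, was at 25.8, 24.7 and 27.1 CPM in mTEChi and 0.728, 0.0531 and 0.532 CPM in cTEC. The 2 sets of libraries were far apart (5.91, SE 0.56, adjusted p = 1.98e-08). Ppy, which encodes pancreatic polypeptide, was at 63.6 ± 6.12 and 2.17 ± 1.66 CPM (4.83, adjusted p = 3.7e-07). Stomach and intestine gave 28 of 34 higher and 0 lower, with Gkn1, a gastric mucosal protein, at 20.8, 13.9 and 16.1 CPM in mTEChi and 0.0728, 0.159 and 0 CPM in cTEC, and Lypd8, a secreted colonic protein, at 516 ± 51.1 and 45.1 ± 7.91 CPM (3.52, adjusted p = 2.85e-08).

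In brain and nerve 21 of 27 were higher and 1 was lower, the neurofilament gene Nefm (-1.01, adjusted p = 0.00896). Th, the tyrosine hydroxylase of catecholamine synthesis, was at 27.4, 26.8 and 24.0 CPM in mTEChi and 0, 0.371 and 0 CPM in cTEC (7.495, adjusted p = 4.36e-08), Npy, a neuropeptide, at 48.4 ± 0.684 and 0.581 ± 0.788 CPM (6.29, adjusted p = 1.22e-07), and Pomc, the precursor of pituitary hormones, at 144 ± 6.91 and 5.69 ± 4.02 CPM (4.70, adjusted p = 1.91e-09). Muscle and heart had 20 of 30 higher and 1 lower. Myl3, a myosin light chain of slow and cardiac muscle, was at 6.37, 5.46 and 9.22 CPM in mTEChi with 0 reads in cTEC, whereas the muscle factor Myog had means of 15.2 and 13.9 CPM and was not called. Mammary antigens were higher in all 8 tested of 9, though 5 of them were called after thinning. Csn2, which encodes beta-casein, was at 827, 995 and 967 CPM in mTEChi and 115, 95.2 and 95.7 CPM in cTEC (3.19, SE 0.25, adjusted p = 1.4e-09). Skin gave 20 of 25 higher and 0 lower, eye 12 of 16 and 2, testis and ovary 18 of 21 and 1, kidney, lung and thyroid 17 of 23 and 2, and salivary, lacrimal, nasal and prostate tissue 17 of 23 and 3. The summed levels of 2 of these lists lay the other way from their counts, without overlap. The eye antigens summed to 326 to 373 CPM in mTEChi, 376 to 452 CPM in cTEC and 786 to 1187 CPM in mTEClo, and those of salivary, lacrimal, nasal and prostate tissue to 955 to 1036, 1243 to 1801 and 321 to 520.4 CPM. For the pancreatic antigens the sums overlapped, at 1262 to 1356 CPM in mTEChi and 1162 to 1870.0 CPM in cTEC. After all libraries were thinned to 1 depth the count for testis and ovary fell from 18 to 10. Crisp1, an epididymal secreted protein, was at 25.4 ± 2.37 and 0.216 ± 0.218 CPM (6.93, adjusted p = 9.96e-07), and Cryaa, a lens crystallin, at 49.9 ± 3.59 and 1.78 ± 1.98 CPM (4.88, adjusted p = 9.6e-08). Bpifa1 was among the 11 lower antigens (above, -1.81, adjusted p = 0.000157).

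Antigens reported earlier to depend on AIRE were called higher in 12 of 13 tested (of 15 listed), and those reported to depend on FEZF2 in 7 of 8, with 0 lower in both. Of all tested genes 35.9% were higher and 28.5% lower. Of the 13 genes of the AIRE list 2 had no read in cTEC. As for the organ antigens, a gene could pass the filter through mTEChi alone, so these counts are descriptions. S100a8, a calcium-binding protein of neutrophils on the first list, was at 179, 181 and 249 CPM in mTEChi and 6.19, 9.55 and 8.47 CPM in cTEC (4.64, adjusted p = 4.94e-09). Nts, which encodes neurotensin, and Coch, an inner ear protein, both on the second list, were at 141 against 2.95 CPM (5.57, adjusted p = 2.03e-10) and 116 against 2.35 CPM (5.60, adjusted p = 3.15e-12). The exceptions were Tgm4 of the prostate (0.37, adjusted p = 0.325) and Kcnj5, a potassium channel (0.07, adjusted p = 0.881).

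**Figure D4:**
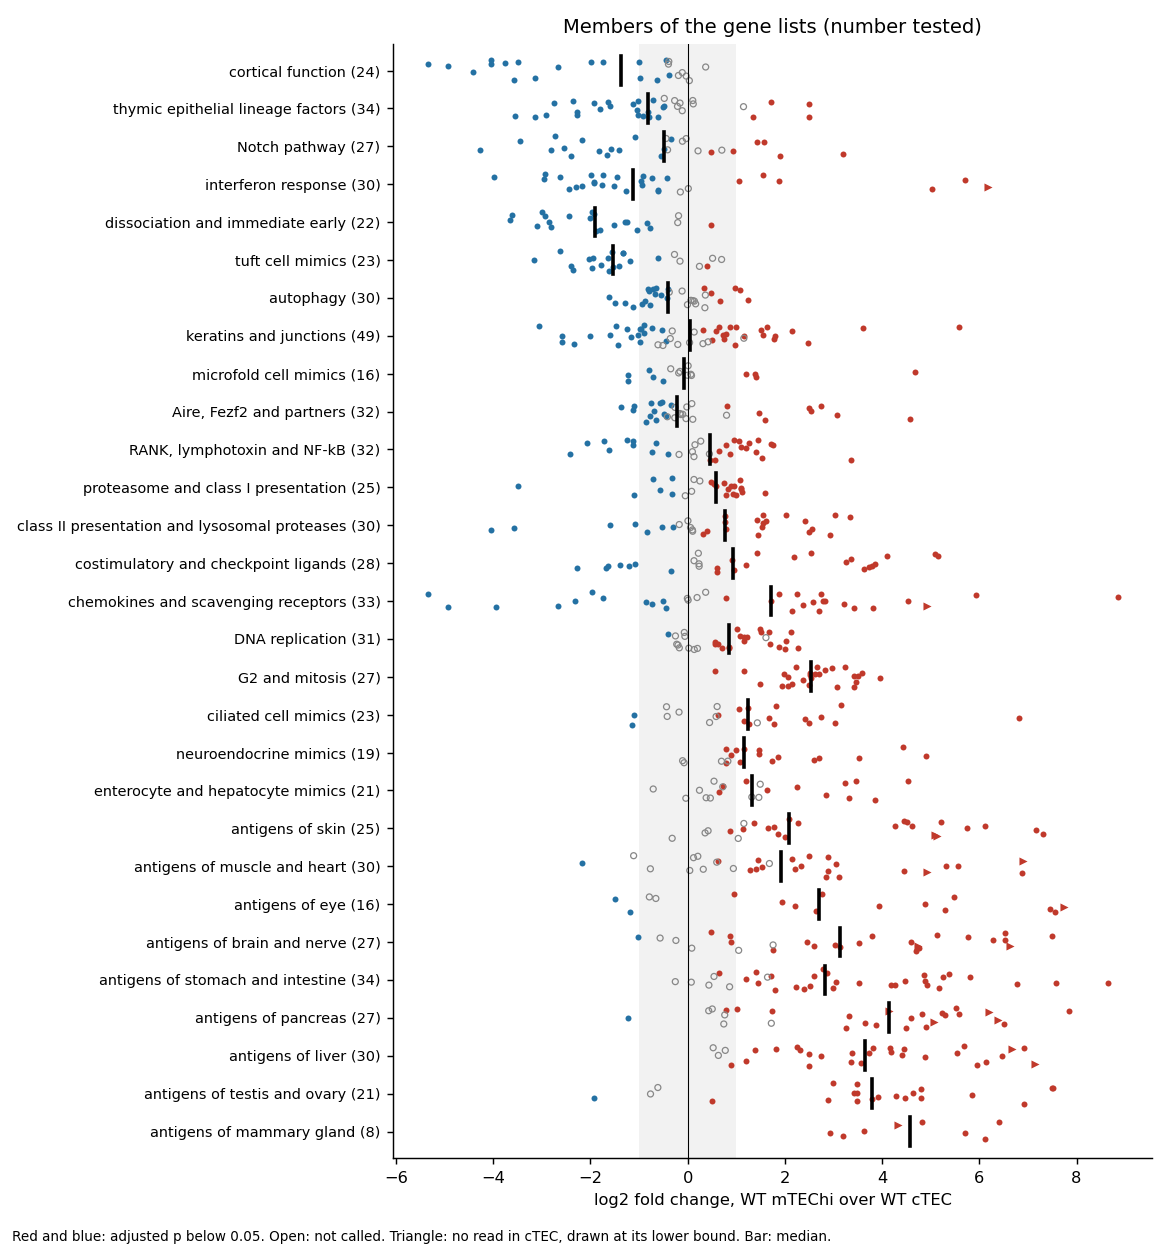
Log2 fold change of each tested member of 29 gene lists, wildtype mTEChi over cTEC, with called genes filled, other genes open, triangles at the lower bound of genes with no read in cTEC, and a black bar at the median of the list. Members of the antigen lists reach far to the right, all 27 genes of G2 and mitosis lie above 0, and most members of the cortical, lineage factor, interferon, stress and tuft lists lie to the left.

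Genes at least 2-fold higher in mTEChi, and those at least 2-fold lower, lay side by side on chromosomes more often than their shares of all genes. Of the genes at least 2-fold higher that had a tested neighbour downstream, 39.3% had one that was also at least 2-fold higher, where 26.8% of all genes with a position were. For genes at least 2-fold lower these shares were 22.98% and 14.6%. Runs of 6 or more neighbouring tested genes that were all at least 2-fold higher numbered 52 and held 444 genes. They were looked for after the values were known, and many hold paralogs among which reads can be shared. Runs of lower genes are not given here. The longest spanned chromosome 7 from 43607135 to 44236122 on GRCm38.p6 and held 33 genes, most of them kallikreins, serine proteases of skin and glands. Their medians were 22.3 CPM in mTEChi, 1.07 CPM in cTEC and 2.26 CPM in mTEClo. Klk14 was at 33.5, 41.1 and 40.3 CPM in mTEChi and 1.67, 4.35 and 3.41 CPM in cTEC, and Klk1b26 at 233, 208 and 203 and 6.26, 4.99 and 20.4 CPM. For neither did the groups overlap. A run of 21 genes on chromosome 5 (86889770 to 88506049) held the caseins, sulfotransferases and the enamel genes Amtn, Ambn and Enam, with medians of 5.21 CPM in mTEChi and 0.245 CPM in cTEC. On chromosome 3 a run of 14 genes, most of them of the skin barrier, had medians of 6.73 and 0.109 CPM, with Crnn at 82.2 and 4.88 CPM. On chromosome 14 a run of 13 with mast cell proteases and granzymes had 3.97 and 0.0354 CPM. In that last run 6 genes had 0 reads in cTEC, and Gzmb, a granzyme of cytotoxic lymphocytes, was at 12.5, 20.4 and 23.05 CPM in mTEChi and 0.291, 0.849 and 0.0532 CPM in cTEC.

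**Figure D5:**
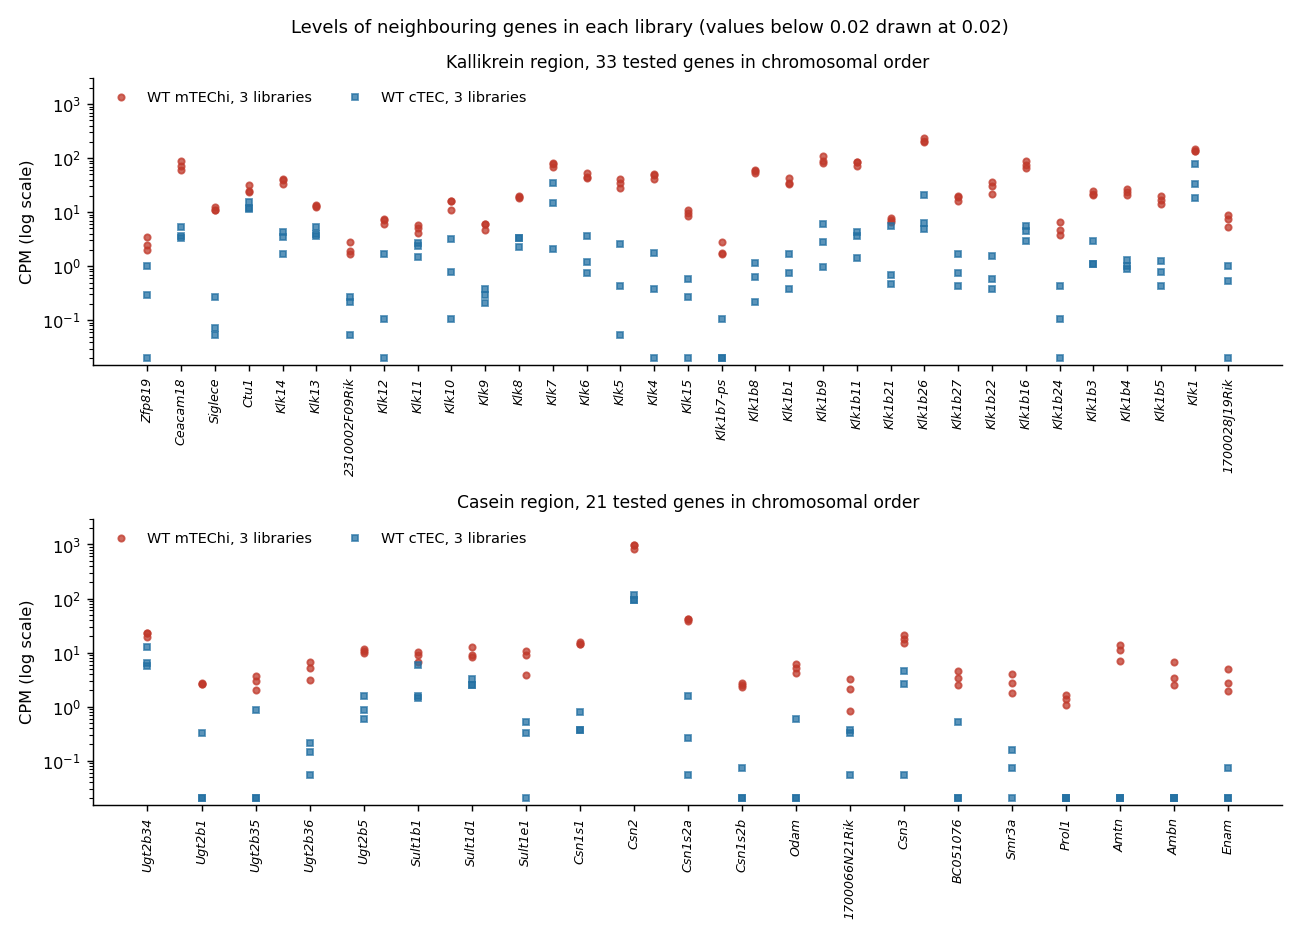
CPM on a log scale of each tested gene in chromosomal order in the kallikrein run (33 genes, top) and the casein run (21 genes, bottom), with 3 points each for wildtype mTEChi and cTEC. The mTEChi points lie above the cTEC points along both runs, and Csn2 has the highest CPM, 930 in mTEChi.

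Medullary cells that take on features of other cell types are known as mimetic cells. Tuft cell genes were called lower in mTEChi in 17 of 23 and higher in 1, the prostaglandin synthase gene Hpgds (0.41, adjusted p = 0.0313). The Hpgds call was lost with no filter (0.29, adjusted p = 0.116), over the 6 libraries alone (0.38, adjusted p = 0.0641), and without mTEChi pool 1 or 2 or cTEC pool 2 or 3, with the highest adjusted p without cTEC pool 2 (0.30, adjusted p = 0.142). Trpm5, the cation channel of taste and tuft cells, was at 51.5, 44.5 and 36.5 CPM in mTEChi, 282, 149.9 and 265 CPM in cTEC and 344, 207 and 203 CPM in mTEClo. The cTEC range overlapped with that of mTEClo, the population in which thymic tuft cells are known to lie (-2.41, SE 0.22, adjusted p = 1.45e-08). Avil, a villin-related protein, and Gnat3, the taste G protein gustducin, were at 41.1 against 361 CPM (-3.15, adjusted p = 1.65e-08) and 97.3 against 286 CPM (-1.56, adjusted p = 4.9e-08). In cTEC of the KO mice Trpm5 was at 24.4 to 27.9 CPM, and there 23 of the 23 genes were called higher in mTEChi than in cTEC, beside 34% of all genes called higher and 28.4% lower in that comparison. The difference of the change between wildtype and KO was called for 23 of the 23, beside 31.5% of all genes tested.

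Neuroendocrine genes were higher in 15 of 19 and lower in 0. The list counts of this paragraph stand beside 35.9% higher and 28.5% lower of all tested genes. As for the organ antigens, a gene could pass the filter through mTEChi alone, so these counts are descriptions. Calca, which encodes calcitonin, was at 246, 261 and 297 CPM in mTEChi and 12.1, 9.87 and 5.16 CPM in cTEC (4.90, SE 0.33, adjusted p = 1.77e-10), and Insm1, a factor of endocrine cells, at 148 ± 13.4 and 12.8 ± 3.86 CPM (3.52, adjusted p = 2.38e-12), while Chga, a protein of secretory granules, was at 64.2 and 39.9 CPM and was not called (0.70, adjusted p = 0.154). With the mouse pool as a block Chga was called higher (0.88, adjusted p = 0.0385), and its level in mTEClo was 178 CPM. Without cTEC pool 1 its change was 1.40, adjusted p = 0.00442. Ciliated cell genes were higher in 14 of 23 and lower in 2. Gmnc, which starts the multiciliated programme, was at 17.4, 13.9 and 13.2 CPM in mTEChi and 0.364, 0.0531 and 0 CPM in cTEC (6.82, SE 0.79, adjusted p = 3.11e-07). Genes of enterocytes and hepatocytes were higher in 11 of 21 and lower in 0, with the intestinal factor Cdx1 at 575 ± 34.7 and 52.1 ± 13.8 CPM (3.46, adjusted p = 2.93e-12). Hnf4a, a factor of liver and gut, was not called (1.32, adjusted p = 0.115). Muscle cell genes gave 8 of 15 higher, with Chrna1, the muscle acetylcholine receptor subunit, at 16.7 ± 1.34 and 2.25 ± 0.878 CPM (2.90, adjusted p = 3.65e-06). Microfold genes gave 4 of 16 higher and 5 lower, and genes of keratinocytes, ionocytes and goblet cells 11 of 24 and 5. Muc5b, a gel-forming mucin of the last list, was lower in mTEChi, at 6.37, 6.77 and 4.61 CPM there and 183, 87.8 and 90.5 CPM in cTEC (-4.35, SE 0.43, adjusted p = 4e-08).

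Cell cycle genes were higher in mTEChi. All 27 tested genes of G2 and mitosis were called higher (median log2 fold change 2.53), and of 31 genes of DNA replication 20 were called higher and 1, the thymidine kinase gene Tk1, lower (-0.41, adjusted p = 0.0294). The Tk1 call was lost with RLE scaling (-0.34, adjusted p = 0.0739), with DESeq2, after thinning, over the 6 libraries alone with or without the pool block, and without mTEChi pool 3 (-0.32, adjusted p = 0.139) or cTEC pool 3 (-0.29, adjusted p = 0.131). Cdk1, the mitotic kinase, was at 85.3, 111 and 111 CPM in mTEChi and 7.71, 8.59 and 12.4 CPM in cTEC (3.42, SE 0.25, adjusted p = 5.29e-10). Ube2c, which marks mitotic proteins for degradation, was at 90.2 ± 11.6 and 5.79 ± 2.25 CPM (3.95, adjusted p = 6.04e-11), and Mki67, the marker of cycling cells, at 75.5 ± 8.04 and 18.7 ± 4.13 CPM (2.01, adjusted p = 6.55e-08). The summed level of the 27 mitotic genes was 1202 to 1410 CPM in mTEChi, 299 to 343 CPM in cTEC and 354 to 387 CPM in mTEClo. Survival and death genes were higher in 19 of 31 and lower in 4. Bcl2, which blocks apoptosis, was lower (-2.45, SE 0.14, adjusted p = 1.04e-11) and its relative Bcl2l1 higher (1.40, SE 0.13, adjusted p = 1.45e-08).

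Of 30 tested genes of the interferon response 22 were called lower in mTEChi and 6 higher. Oas2, a sensor of double-stranded RNA, was at 7.48, 7.01 and 3.53 CPM in mTEChi and 109, 66.6 and 102 CPM in cTEC. Each cTEC library was above each mTEChi library (-3.98, SE 0.27, adjusted p = 1.32e-10). Irf7, a transcription factor that interferon induces, and Isg15, a ubiquitin-like protein, were lower as well (-2.29, adjusted p = 1.72e-09 and -1.93, adjusted p = 1.62e-06). The 6 higher genes were Ifnb1, Ifnl2, Ifnl3, Cxcl10, Oasl1 and Usp18. Ifnb1, which encodes interferon beta, was at 4.15, 3.21 and 5.42 CPM in mTEChi with 0 reads in cTEC, at least 73.0-fold higher. Ifnl2 and Ifnl3, near-identical genes of type III interferon between which reads are uncertain, were at 15.03 and 12.1 CPM in mTEChi and 0.453 and 0.247 CPM in cTEC (5.02, adjusted p = 3.53e-07 and 5.70, adjusted p = 6.93e-07). Cxcl10, a chemokine that interferon induces, was at 1299 ± 132 and 352 ± 45.5 CPM (1.88, adjusted p = 7.16e-10).

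Immediate early and heat shock genes, which rise during tissue digestion, also differed. Of 22 tested 19 were called lower in mTEChi and 1, Ier5, higher, and their summed level was 8833 to 10597 CPM in mTEChi and 29794 to 39122 CPM in cTEC. Fos and Jun were at 749.5, 532 and 506 CPM and 999, 635 and 598 CPM in mTEChi and at 6074, 4319 and 4777 CPM and 6476, 4008 and 5079 CPM in cTEC. Every cTEC library was higher than every mTEChi library for both (Fos -3.09, adjusted p = 4.46e-10, Jun -2.80, adjusted p = 1.34e-09). The part of this difference in the other genes lower in mTEChi was not tested. Hspa1a and Hspa1b, near-identical heat shock genes between which reads are uncertain, changed by -1.52, adjusted p = 5.4e-09 and -1.04, adjusted p = 2.66e-06.

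Markers of other cells that a thymic sort can carry were looked at as whole lists. Of 18 tested genes of macrophages and dendritic cells 15 were called higher in mTEChi and 1, Mpeg1, lower, and their sum was 1750 to 1827 CPM in mTEChi and 239 to 300 CPM in cTEC. Most of it was Lyz2, which encodes lysozyme, at 1458, 1473 and 1409 CPM in mTEChi and 119, 136 and 201 CPM in cTEC (3.25, SE 0.17, adjusted p = 4.64e-12). The macrophage receptor gene Adgre1 was at 16.0 ± 3.78 and 0.778 ± 0.339 CPM, Flt3 of dendritic cells at 13.8 ± 0.642 and 0.28 ± 0.249 CPM, and Itgax, the integrin CD11c, at 1.09 and 0.371 CPM, too low to be tested. The part of such cells in the class II, Ctss, Cd80, Cd86 and chemokine results was not tested. Of 22 thymocyte genes 6 were higher and 7 lower, beside 35.9% and 28.5% of all tested genes. The defining Cd3e was at 3.25 to 4.98 and 1.28 to 7.28 CPM. Rag1 was lower in mTEChi, at 0.554, 2.14 and 0.813 CPM there and 14.3, 6.74 and 0.426 CPM in cTEC (-2.45, adjusted p = 0.0088). That call was lost without cTEC pool 1 (-1.48, adjusted p = 0.0821). Over the 6 libraries alone it was lost without the pool block (-2.52, adjusted p = 0.063) and with it (-1.81, adjusted p = 0.133). B cell genes gave 6 of 10 higher and 2 lower, with Cd79a at 5.09 and 0.986 CPM. Fibroblast genes gave 4 of 13 higher and 7 lower. Their summed level was 228 to 254 CPM in mTEChi and 1119 to 1450 CPM in cTEC, with Dcn, a matrix proteoglycan, at 67.8 ± 4.497 and 611 ± 96.2 CPM (-3.17, adjusted p = 5.57e-13), while the defining Pdgfra was at 0.95 to 1.63 and 0.946 to 3.34 CPM. Mural genes were lower in 5 of 10 and higher in 2, with Acta2, which defines them, at 74.2 ± 5.07 and 241 ± 18.7 CPM (-1.70, adjusted p = 4.13e-09). The part of fibroblasts and mural cells in the genes lower in mTEChi, such as Cxcl12, Fmod and Prelp, was not tested. Endothelial genes were higher in 4 of 8, with Pecam1 at 6.24 to 7.25 and 3.35 to 9.18 CPM, and erythroid genes in 3 of 6 with 1 lower. The sum of the erythroid genes was 45.7 to 54.2 CPM in mTEChi and 27.9 to 114 CPM in cTEC. Each of these markers had reads in both cell types.

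The same contrast in KO mice used other animals and shared no sample with the wildtype contrast. Both contrasts came from the same fit, with a shared filter and a shared estimate of the spread. There Kat7 was at 1.47 to 2.88 CPM in mTEChi and 2.26 to 4.16 CPM in cTEC. Of the 5127 genes at least 2-fold higher in wildtype mTEChi, 3992 (77.9%) were also called higher in KO mTEChi and 67 were called lower. Of the 2842 at least 2-fold lower, 2095 (73.7%) were also called lower and 195 called higher. Of all tested genes 34% were called higher and 28.4% lower in the KO contrast. Among the 5127 genes, 376 had no read in wildtype cTEC and could pass the filter through mTEChi alone. Aire was at 693, 633 and 703 CPM in KO mTEChi and 22.4, 17.9 and 11.7 CPM in KO cTEC, and Psmb11 at 105, 79.7 and 88.6 and 917, 607 and 429 CPM. In both genes the direction of the wildtype mice was kept, with no overlap between the KO groups.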

How the data were processed

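RNA of sorted thymic epithelial cells was amplified with SMART-Seq v4 and Nextera XT libraries were read on a NextSeq with paired ends of 75 bases, per the labels' protocols. The deposited values are raw counts per gene from featureCounts on the mm10 build, per the submitters' processing notes. The aligner and all versions are not given in the sources used here. The kits do not mark strand, so reads of overlapping and antisense genes could not be separated, and reads among near-identical genes are uncertain. Reads carried no molecular identifiers, and the floors hold for counting error alone.

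Genes were filtered with filterByExpr (minimum count of 10) over all 18 libraries in 6 groups, scaled by TMM and fitted with edgeR 4.0.16 (quasi-likelihood, 12 residual degrees of freedom, R 4.3.3), and p-values were adjusted by Benjamini-Hochberg over 19364 genes. The fit was tested on simulated counts. The total counts were 3554089 to 8445355 in mTEChi and 13300969 to 18338441 in cTEC. Libraries were grouped by their labels, and the fit had no block for the pools. The labels give each pair of libraries the same pool of mice. Deviations from the group means correlated within pools at 0.12, 0.06 and 0.06, and between pools at -0.09 to 0.02. Replicates are pools of mice. Alternatives were RLE scaling, DESeq2 1.42.0, no filter, the 6 libraries alone, a pool block, thinning to 3554089 counts and leaving out each library. The comparison and the gene lists were chosen with earlier results of these data known. Named were Kat7, the defining genes of the 45 lists, up to 4 members of a list with the smallest adjusted p in each direction, and the 12 genes with the highest and lowest log2 fold change among called genes that did not overlap and had at least 5 CPM in the higher group, without predicted genes, receptor segments and genes on X and Y. Other genes named were taken from the lists and runs after their values were seen. Of 1049 listed genes 1039 matched by symbol, 7 by synonym and 3 not at all. Promoter windows and positions came from RefSeq (GRCm38.p6). A comparison of promoters between gene sets was not made, since 74.5% of tested genes had a window and 80% were needed.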

Additional observations from a re-analysis of the deposited data

Results flagged for a closer look

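The change from cTEC to mTEChi differed between wildtype and KO mice for 83 of the 180 named genes that were tested, by edgeR's test of the interaction (adjusted p below 0.05), beside 31.5% of all genes. Many of the named genes were chosen by their wildtype change, which is part of this difference. The shares are therefore not of like sets, and no excess is read from them. Each value below is the wildtype log2 fold change minus that of the KO mice, so a negative value is a change that was less in favour of mTEChi in wildtype. The cause was not tested.

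The tuft cell genes Avil, Gnat3 and Trpm5, Bpifa1 and Ccl11 were called in opposite directions, lower in mTEChi in wildtype and higher in KO mice. Their values were Avil -5.95, Gnat3 -4.37, Trpm5 -5.20, Bpifa1 -2.72 and Ccl11 -3.84. Further genes of mimetic cells and organ antigens with negative values were Myog -7.28, Ppy -5.26, Krt76 -4.25, Kcnj5 -3.71, Nts -3.12, Hpgds -2.51, Cdx1 -2.15 and Csn2 -2.02. Others of these kinds were Fcgbp -1.996, Apoa1 -1.93, Lypd8 -1.54, Reg3g -1.11 and Insm1 -0.83. Myog was at 46.3 CPM in KO mTEChi and 0.266 CPM in KO cTEC. Positive values among antigen and mimetic cell genes were Chga 4.88, Crisp1 4.57, Nefm 2.14 and Gp2 2.04. Chga had means of 45.1 CPM in KO mTEChi and 817 CPM in KO cTEC, whereas its wildtype change was not called (0.70, adjusted p = 0.154). The KO cTEC libraries differed widely, with sums of the neuroendocrine list from 427 to 1427 CPM. For Tmem92 4.89, H2-M10.1 5.86 and Bcat1 6.12 the fitted size depends on the prior count, since wildtype cTEC had 0 reads.

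Among genes of presentation and costimulation the values were H2-Ob -2.37, Ctss -1.53, Tap1 -0.83, Tap2 -0.54 and Lgals9 -1.41 on the negative side and H2-Aa 0.51, Cd40 0.63, Icosl 1.05, Cd200 2.01, Ubd 1.09 and Psme2 0.66 on the positive side. The proteasome genes had Psmb5 0.84, Psmb8 0.70, Psmb9 0.57 and Psmb10 0.72. Chemokine, cytokine and interferon genes had Ccl21a -2.41, Ackr4 -1.58, Cxcl12 -1.01, Cxcl10 1.16, Il7 -0.49, Fst -0.64 and Fgf21 -1.14, and Oas2 -2.11 and Irf7 -1.14. Medullary, cortical and NF-kB genes had Hdc -2.19, Nos2 -1.90, Lifr -0.79, Enpep 0.67, Tnfrsf11a -1.09, Map3k14 -0.96 and Nfkb1 -0.58. Notch, keratin and lineage genes had Jag2 -1.40, Dll1 -1.19, Hey1 -0.81, Krt5 -1.76, Krt14 -1.45, Cdh3 -0.90, Ocln -0.83 and Itgb4 -0.71, and Meis1 -0.75, Hoxa3 1.55, Isl1 1.55 and Tfap2c 1.69. Partners of AIRE and genes of autophagy, cell cycle and survival had Sirt1 0.89, Ccnt2 -0.78, Top2b -0.69, Ulk1 -0.62, Top2a 1.09, Cdk1 1.505, Mki67 0.80, Ube2c 2.54 and Bcl2l1 0.66. Immediate early genes had Jun -1.19 and Fos -1.13, and markers of other cells Mpeg1 -4.39, Lyz2 -1.63, Acta2 -1.17 and Cd3e 2.25.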

How the results depend on the processing

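The counts of genes higher, lower and at least 2-fold higher or lower stayed within 1.5 times of the reported counts under every alternative. Genes higher in mTEChi ranged from 5471 (thinned) to 7600 (no filter) and 6436 to 7269 without 1 library, and lower genes from 4938 to 6237 and 4902 to 5586 without 1 library. Genes at least 2-fold higher ranged from 3726 to 6131 (4917 to 5533 without 1 library) and 2-fold lower from 2581 to 3352 (2659 to 2978). The share of calls that were higher lay between 52.3% and 59.4%. With the mouse pool as a replicate block, 7190 genes were higher and 5624 lower, and over the 6 libraries alone 5611 and 4938. Besides Ccl25, Kat7, Fcgbp and Chga, the block over 18 libraries changed the call of no other named gene. The difference in detected genes was 3346 at a minimum of 1 read and 1881 at 10, and 2410 to 2547 without 1 library. The Psmb11 share differed by -37.0 percentage points in raw counts and by -12.9 to -16.3 without 1 library, and the antigen share by 0.383 to 0.558. With pools as a block the exact sign-flip p of these 3 was 0.25, the smallest possible.

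Genes that were not called changed sign under some settings. Cd3e was 0.0201 and 0.0742 with the pool block over 18 and 6 libraries, and -0.66 to 0.24 without 1 library. Dll4 was 0.0459 with RLE scaling, 0.0510 with DESeq2 and 0.0282 with the block, and -0.17 to 0.25 without 1 library. Foxn1 was -0.23 to 0.0121 without 1 library. Kcnj5 was -0.0499 with no filter and -0.26 to 0.59 without 1 library. Myog was -7.63e-05 with no filter and -0.0804 to 0.22 without 1 library. List counts moved in 65 of 1196 values, besides the mammary and reproductive lists all where at most 2 members were called in that direction. List medians moved more often, in 119 of 598 values. These belonged to 35 of 46 medians, that of the pooled organ antigens counted as 1. The cause was not tested. Depth limits genes under 0.155 CPM in mTEChi.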
